A study of Mus musculus with 6 samples.

Results

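The cells described here were kidney macrophages that carried high levels of the metallothionein transcripts Mt1 and Mt2, in 3 libraries of acute kidney injury that followed rhabdomyolysis, in which skeletal muscle breaks down. They were chosen by their own measured transcripts. A barcode had to hold 500 or more gene UMIs (unique molecular identifiers, 1 per captured RNA molecule) from 200 or more genes. Mitochondrial UMIs could be at most 15% of these, and Malat1, an abundant nuclear RNA, had to be at least 0.3%. The barcode had to carry at least 0.3% of its UMIs in the complement C1q genes C1qa, C1qb and C1qc, which mark macrophages, with 0 UMIs of Arg1, Cd3e and Cd79a and fewer than 2 of Cxcl9 and Cxcl10. Cells with at least 0.1% of their UMIs in Mt1 and Mt2 were called metallothionein-high, and those below that share metallothionein-low. By this rule 947 of 1592 macrophages were metallothionein-high and 645 metallothionein-low, out of 4051 barcodes past the quality gates in the rhabdomyolysis libraries and 12596 in all 6 libraries.

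The study sorted live cells positive for CD45, the surface marker of leukocytes, from digested kidneys of C57BL/6J mice aged 8 weeks, and sequenced them in droplets by the 3' method. There were 3 libraries of rhabdomyolysis-induced injury and 3 of control mice. The labels give neither the agent that caused the rhabdomyolysis nor the time after it. Nor do they say that the libraries of a group came from separate animals, so that p-values reflect only how libraries varied, and that variation may be technical.

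Metallothioneins are small, cysteine-rich proteins that bind zinc and copper ions and buffer their free level in the cell. Their genes are switched on by the zinc-sensing factor MTF1, by glucocorticoids and by oxidative stress. In rhabdomyolysis myoglobin from muscle reaches the kidney, where macrophages take up heme and iron. Kidney macrophages are partly long-lived residents and partly descendants of blood monocytes that carry the chemokine receptor CCR2.

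The rhabdomyolysis libraries held 10816727 to 22656666 gene UMIs and the control libraries 16666253 to 19427318. The Malat1 gate removed 2350, 3440 and 4968 barcodes of rhabdomyolysis replicates 1, 2 and 3 that had passed 500 UMIs, so most of those barcodes were not in any class. No quality barcode was shared between rhabdomyolysis libraries, and 0 to 3 were shared between any pair of libraries, none of them metallothionein-high in both. Metallothionein-high cells had median depths of 5651, 4791 and 7153.5 UMIs in replicates 1, 2 and 3, and metallothionein-low cells 6366.5, 5306 and 7209 UMIs. Their median mitochondrial shares lay between 1.39% and 1.93% in metallothionein-high and between 1.28% and 1.92% in metallothionein-low cells.

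Metallothionein-high cells were spread very unevenly over the 3 libraries. They made up 54.4% of the macrophages in replicate 1 (243 of 447 cells, exact Clopper-Pearson 95% interval 49.6% to 59.1%), 87.6% in replicate 2 (594 of 678, 84.9% to 89.996%) and 23.6% in replicate 3 (110 of 467, 19.8% to 27.7%). The intervals cover counting error only, and those of the 3 libraries did not overlap. Replicate 2 therefore gave 62.7% of all metallothionein-high cells but 13.02% of the metallothionein-low ones, and replicate 3 gave 11.6% and 55.3%. In the control libraries the same gates left 4205 macrophages, of which 134 reached the threshold, 3.13%, 3.22% and 3.24% of each library. As the rule used Mt1 and Mt2, the shares are a description and were not tested.

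A share of UMIs depends on depth, since a shallow cell can pass with few molecules. Only 2 cells in each rhabdomyolysis library passed on a single UMI, and with a demand of 3 or more UMIs the shares were 53.2%, 85.7% and 22.9% in replicates 1, 2 and 3. After every cell was thinned to 1000 UMIs, where a single molecule is enough to pass, the shares were 67.4%, 89.1% and 40.9% in the rhabdomyolysis libraries and 18.0%, 15.7% and 18.2% in the control libraries. The cells thus kept the library order of replicate 2, then 1, then 3 at equal depth. Thinning left out 11, 20 and 5 shallower macrophages of the rhabdomyolysis libraries, and 39, 68 and 35 of the control libraries.

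The threshold cut through a continuous distribution. The median metallothionein share over all macrophages was 0.112%, 0.382% and 0.0469% of UMIs in rhabdomyolysis replicates 1, 2 and 3, and 0% in each control library. Just inside the threshold, between 0.10% and 0.12%, lay 31, 21 and 22 cells of the rhabdomyolysis libraries, and just outside it, between 0.08% and 0.10%, lay 43, 21 and 31. At the upper end, 140 macrophages of replicate 2 carried 1% or more of their UMIs in Mt1 and Mt2, against 4 in replicate 1 and 2 in replicate 3. The highest single cells reached 2.22%, 6.75% and 1.18% in replicates 1, 2 and 3.

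**Figure D1:**
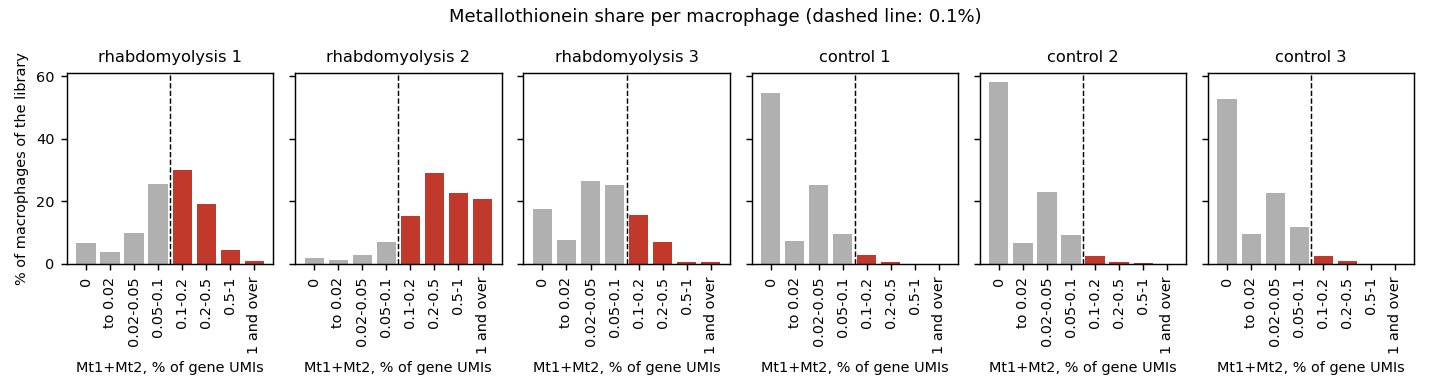
Share of gene UMIs in Mt1 and Mt2 per macrophage (horizontal axis, classes in percent) against the percent of macrophages of the library in each class, for 3 rhabdomyolysis and 3 control libraries. Red bars right of the dashed line are metallothionein-high cells. They hold 87.6% of macrophages in rhabdomyolysis replicate 2 and 3.13% to 3.24% in the control libraries.

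Mt1 was the more abundant transcript, and Mt2 was higher in the same cells. Mt1 lay at 2241, 6132 and 1828 CPM (UMIs per 1000000 gene UMIs, summed over the cells) in the metallothionein-high cells of replicates 1, 2 and 3, and at 501, 509 and 374 CPM in the metallothionein-low cells. Mt2 lay at 235, 1034 and 158 CPM in metallothionein-high and at 29.2, 31.4 and 18.9 CPM in metallothionein-low cells. Mt2 gave 9.49%, 14.4% and 7.96% of the metallothionein UMIs in metallothionein-high cells, and 5.50%, 5.82% and 4.82% in metallothionein-low cells. Both transcripts were seen together in 57.2%, 78.6% and 55.5% of metallothionein-high cells, and in 16.2%, 14.3% and 12.3% of metallothionein-low cells.

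Metallothionein-low macrophages were themselves above control macrophages. Together the 2 genes had 530, 540 and 393 CPM in metallothionein-low macrophages of the rhabdomyolysis libraries, against 172, 168 and 197 CPM in those of the control libraries. Mt2 alone had 1.89, 1.22 and 1.80 CPM in the control cells below the threshold, and in the 134 control cells above it Mt2 gave 2.84%, 1.48% and 0.474% of the metallothionein UMIs. Control cells above the threshold thus held almost only Mt1 of the pair.

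Lymphocytes of the same libraries were low in both transcripts. T, B and NK cells reached the threshold in 1 of 93, 2 of 134 and 1 of 232 cells of rhabdomyolysis replicates 1, 2 and 3, at 42.8, 147 and 25.6 CPM and at median depths of 2016, 2444.5 and 2892.5 UMIs. Neutrophils of these libraries stood between, with 633, 1587 and 415 CPM. Free RNA, read from barcodes with 100 or fewer UMIs, held 1994, 6339 and 1090 CPM of metallothionein in the rhabdomyolysis libraries and 256, 293 and 267 CPM in the control libraries. Free RNA of each rhabdomyolysis library was thus above the 0.1% threshold and followed the order of the metallothionein-high shares. Neutrophils reached the threshold in 8.79%, 28.6% and 9.82% of cells. How much free RNA the macrophage barcodes held was not estimated, and its part in their metallothionein counts was not tested.

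**Figure D2:**
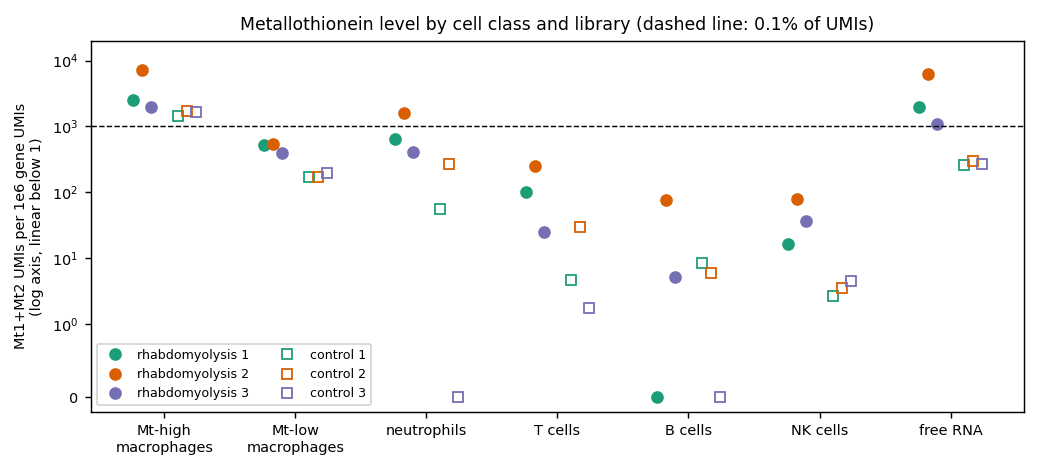
Mt1 and Mt2 CPM (vertical log axis, linear below 1) in each cell class and in free RNA, by library. Filled circles are rhabdomyolysis and open squares control libraries. Mt-high and Mt-low stand for metallothionein-high and metallothionein-low. Rhabdomyolysis replicate 2 is the highest rhabdomyolysis library in every class drawn.

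The cells carried macrophage markers in all 3 libraries. Adgre1, which encodes the F4/80 antigen, had 110, 67.3 and 159 CPM in the metallothionein-high cells of replicates 1, 2 and 3, and 121, 48.1 and 128 CPM in the metallothionein-low cells. Csf1r, the receptor for the growth factor of macrophages, had 225, 229 and 327 CPM in metallothionein-high and 295, 252 and 380 CPM in metallothionein-low cells. Control macrophages had more of both, with 435 to 482 CPM of Adgre1 and 510 to 624 CPM of Csf1r. Of 11 tested macrophage markers 7 had a positive change and none was called, with a median of 0.13. The matrices also hold counts of 6 antibody tags, although the labels list none for these libraries. The F4/80 tag had medians of 34, 46 and 68 UMIs per metallothionein-high cell, against 26, 23 and 50 per metallothionein-low cell, and 0 to 2 per T or B cell. The tag for P2X7R, the ATP receptor encoded by P2rx7, had medians of 9, 13 and 18 UMIs in metallothionein-high and 7, 7 and 13 in metallothionein-low cells. The CD3 tag, whose antigen belongs to T cells, also had higher medians in metallothionein-high cells, with 4, 5 and 8 UMIs against 3, 3.5 and 6. Sums of these tags per 1000 gene UMIs kept this order other than for F4/80 in replicate 1 and P2X7R in replicate 3. F4/80 had 5.57 in metallothionein-high and 22.3 in metallothionein-low cells of replicate 1. There the 204 metallothionein-low cells held 32073 F4/80 UMIs, with an upper quartile of only 44.5 per cell. In replicates 2 and 3 F4/80 had 9.45 and 8.90 in metallothionein-high and 4.67 and 8.02 in metallothionein-low cells. P2X7R had 2.46 in metallothionein-high and 3.96 in metallothionein-low cells of replicate 3. The order of the classes for F4/80 in replicate 1 and P2X7R in replicate 3 thus depended on the measure, and the tags were not tested.

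Jaml and Il1r2, which marked such cells in earlier work on these data, accompanied the metallothioneins unevenly. Jaml, a junctional adhesion molecule of leukocytes, had 120, 561 and 19.4 CPM in metallothionein-high cells and 90.3, 165 and 6.88 CPM in metallothionein-low cells. Il1r2, a decoy receptor that captures interleukin 1, had 186, 515 and 29.6 CPM in metallothionein-high cells and 109, 154 and 30.3 CPM in metallothionein-low cells. Both were highest in replicate 2 and lowest in replicate 3, in metallothionein-high and metallothionein-low cells alike. Control macrophages had 8.49 to 12.5 CPM of Jaml and 6.79 to 7.92 CPM of Il1r2. In replicate 3 a Jaml UMI was seen in 10.0% of metallothionein-high cells, against 3.64% of metallothionein-low cells and 9.05% of lymphocytes, at median depths of 7153.5, 7209 and 2892.5 UMIs. That share is close to the one in lymphocytes and is not read as a marker of these cells. Whether the lymphocytes themselves express Jaml was not tested. Thinned to 1000 UMIs, the Jaml share in replicate 3 was 0.926% in metallothionein-high and 1.41% in metallothionein-low cells. Il1r2 was seen in 6.36% of metallothionein-high cells there, against 10.1% of metallothionein-low cells and 0.862% of lymphocytes. In replicate 2 the shares with a UMI were 79.3% for Jaml and 67.5% for Il1r2. They were 42.9% and 32.1% in metallothionein-low cells and 4.48% and 2.99% in lymphocytes, at median depths of 4791, 5306 and 2444.5 UMIs. In replicate 1 Jaml was seen in 41.2% of metallothionein-high and 30.9% of metallothionein-low cells, and Il1r2 in 43.2% and 24.0%. Thinned to 1000 UMIs, the shares of replicate 1 were 11.7% and 11.2% for Jaml and 15.9% and 8.63% for Il1r2. Those of replicate 2 were 38.6% and 20.5%, and 33.6% and 14.5%. The macrophages of replicate 3 that passed the metallothionein threshold are therefore named here by Mt1 and Mt2 alone. As Jaml and Il1r2 were among the markers by which these cells were first singled out, no p-value is given for either.

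Beyond the metallothioneins, metallothionein-high macrophages carried more transcripts of Pf4, Cd63, Mrc1, Maf, ferritin heavy chain and cathepsins L and B, and fewer of the monocyte genes S100a4, S100a6, Ccr2, Fn1 and Chil3, than the metallothionein-low macrophages of the same library. Counts were summed per library and class and tested with the edgeR quasi-likelihood test, with the library as a block and Benjamini-Hochberg adjustment. Of 8009 genes tested, 73 (0.911%) passed an adjusted p of 0.05, 24 of them (0.3%) higher and 49 (0.612%) lower in metallothionein-high cells. All of the 73 but Asb2, 72 genes, moved the same way in all 3 libraries. The same libraries gave the calls, and a paired test favours genes with a shared direction, so this is no separate support. The median log2 change of all tested genes was 0.01, and 804 genes had an unadjusted p under 0.05. The calls depended on the pairing: with the library left out of the model Gzma alone was called, and DESeq2 with the library in the model called 21 genes. Among the alternatives that kept all 3 libraries, Pf4 and Cd63 were called in each other than that without the library in the model. Mrc1 and Maf were called in each of these other than that and the thinned counts.

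Pf4, the chemokine CXCL4, had the smallest adjusted p among the genes that were higher. It had 1502, 530 and 1334 CPM in metallothionein-high cells of replicates 1, 2 and 3, and 680, 215 and 518 CPM in metallothionein-low cells. The log2 change was 1.28 ± 0.12 (SE, adjusted p = 4.25e-05), and each library showed it although replicate 2 was lowest in both classes. Cd63, a tetraspanin of late endosomes and lysosomes, had 861, 1035 and 619 CPM in metallothionein-high and 405, 355 and 307 CPM in metallothionein-low cells. All metallothionein-high values of Cd63 lay above all metallothionein-low values, a log2 change of 1.22 ± 0.14 (adjusted p = 0.000354).

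Mrc1, the mannose receptor CD206 of scavenging macrophages, had 103, 112 and 219 CPM in metallothionein-high and 57.0, 59.2 and 90.8 CPM in metallothionein-low cells. The groups did not overlap, and the log2 change was 1.06 ± 0.15 (adjusted p = 0.00277). Maf, a transcription factor of mature macrophages, had 77.7, 125 and 128 CPM in metallothionein-high and 39.6, 57.3 and 61.2 CPM in metallothionein-low cells, a log2 change of 1.06 ± 0.15 (adjusted p = 0.00306). Control macrophages as a whole had more of both, with 221 to 286 CPM of Mrc1 and 264 to 339 CPM of Maf. Cd63, Maf and Mrc1 were the 3 called members of the kidney resident macrophage list. None of the 25 tested members was called lower, and the median log2 change of the list was 0.21, so most of its members did not pass the test.

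Among heme and iron genes, Fth1 and Blvrb were higher. Fth1, the ferritin heavy chain, had 30776 CPM in replicate 1, 31581 in replicate 2 and 21656 in replicate 3 in metallothionein-high cells, against 22348, 13125 and 16533 CPM in metallothionein-low cells. The log2 change was 0.72 ± 0.13 (adjusted p = 0.0165), and control macrophages had 8660 to 9849 CPM. Without replicate 2 the log2 change of Fth1 was 0.42. Blvrb, biliverdin reductase B, had 248, 144 and 250 CPM in metallothionein-high and 166, 77.7 and 164 CPM in metallothionein-low cells, a log2 change of 0.68 ± 0.14 (adjusted p = 0.027). These were the called members of 21 tested heme and iron genes, with none lower and a list median of 0.16. Hmox1, the heme-degrading enzyme, was chosen after its values were seen and did not pass, with 249, 220 and 280 CPM in metallothionein-high and 181, 501 and 79.8 CPM in metallothionein-low cells. Its log2 change of 0.35 ± 0.34 had an adjusted p of 0.805, and the libraries did not share a direction. Fth1 and Blvrb were not called by DESeq2 (adjusted p = 0.071 and 0.18) nor with a C1q share of at least 1% (0.0873 and 0.084), and Blvrb not without replicate 1 (0.17).

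Among lysosomal proteases, cathepsins L and B were higher. Ctsl, cathepsin L, had 865, 816 and 502 CPM in metallothionein-high and 402, 657 and 279 CPM in metallothionein-low cells (log2 change 0.77 ± 0.15, adjusted p = 0.0184). Ctsb, cathepsin B, had 1095, 805 and 1617 CPM in metallothionein-high and 660, 699 and 788 CPM in metallothionein-low cells (0.68 ± 0.14, adjusted p = 0.0287). With Cd63 they were the 3 called genes of 29 tested lysosome genes, and the cathepsins Ctsa, Ctsc, Ctsd, Ctsh, Ctss and Ctsz were not called. Of the 29, 24 had a positive log2 change, and the list median was 0.24. Without replicate 1 neither Ctsl (0.60, adjusted p = 0.45) nor Ctsb (0.65, adjusted p = 0.37) was called, and without replicate 3 Ctsb was at 0.49 (adjusted p = 0.19).

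The remaining named genes that were higher had other roles. Trp53inp1, a stress-induced partner of p53, had the largest log2 change of these, 2.21 ± 0.33 (adjusted p = 0.00372), but its level rested on replicate 2 and it was not among the genes tested without that library, with 11.7, 115 and 4.08 CPM in metallothionein-high and 1.39, 22.2 and 2.41 CPM in metallothionein-low cells. Abca1, which exports cholesterol from macrophages, had 39.7, 77.0 and 30.6 CPM in metallothionein-high and 13.9, 29.6 and 17.2 CPM in metallothionein-low cells (1.23 ± 0.21, adjusted p = 0.0105). Tagln, Hgsnat, Cd38, Hpgds and Serpinb6a were higher with log2 changes of 0.89 to 1.20. DESeq2 called none of these 5 nor Abca1, and without replicate 1 Abca1, Tagln, Cd38, Hpgds and Serpinb6a were not called (adjusted p = 0.0546 to 0.153). Without replicate 3 Hgsnat (0.0611) and Hpgds (0.231) were not called. Among the 5, Hgsnat encodes a lysosomal enzyme of heparan sulfate breakdown and Hpgds a prostaglandin D synthase.

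The lower genes included a set of blood monocyte genes. S100a6, a calcium-binding protein, had 729, 504 and 700 CPM in metallothionein-high cells, against 1282, 3063 and 1482 CPM in metallothionein-low cells. S100a4, a related protein, had 360, 195 and 465 CPM in metallothionein-high and 758, 1474 and 881 CPM in metallothionein-low cells. The groups of each gene did not overlap and were farthest apart in replicate 2. The log2 changes were -1.48 ± 0.23 for S100a6 (adjusted p = 0.0061) and -1.60 ± 0.26 for S100a4 (adjusted p = 0.00811).

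Ccr2, the receptor that draws monocytes out of marrow and into tissue, had 84.1, 52.7 and 116 CPM in metallothionein-high cells and 138, 252 and 175 CPM in metallothionein-low cells (log2 change -1.16 ± 0.23, adjusted p = 0.0225). Fn1, fibronectin, had 70.1, 60.3 and 126 CPM in metallothionein-high and 148, 383 and 167 CPM in metallothionein-low cells (-1.38 ± 0.28, adjusted p = 0.0237). Chil3, a chitinase-like protein of mouse monocytes and macrophages, had 992, 395 and 823 CPM in metallothionein-high and 1733, 1541 and 1185 CPM in metallothionein-low cells (-1.08 ± 0.19, adjusted p = 0.0132). Each of these was lower in metallothionein-high cells of all 3 libraries, and replicate 2 gave much of the size. Without replicate 2 the log2 changes were -0.66 for Ccr2, -0.72 for Fn1, -0.67 for Chil3, -1.001 for S100a4 and -0.95 for S100a6. That fit has few sums from which to estimate the variance and called 211 genes, so its calls are not used here. Control macrophages held 0.340 to 0.707 CPM of Fn1 and 0 to 4.95 CPM of Chil3, but 273 to 389 CPM of Ccr2.

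Of 14 tested classical monocyte genes, 6 were lower (Ccr2, Chil3, Fn1, S100a4, S100a6 and Thbs1) and none was higher, with a list median of -0.88 against 0.01 over all tested genes. Of 20 alarmin and annexin genes, 4 were lower (S100a4, S100a6, S100a10 and Anxa2), with a median of -0.09. Of 24 leukocyte adhesion genes, 3 were lower (Cd44, Ccr2 and Vim), with a median of -0.36. The lists share members, and the monocyte genes depended on how strictly macrophages were gated. A C1q share under 1% was found in 16.0%, 38.4% and 24.5% of metallothionein-high cells and in 22.1%, 50% and 28.0% of metallothionein-low cells. With a C1q share of at least 1% demanded of both classes, 2 of 11 tested monocyte genes were lower with a median of -0.43, Chil3 turned to 0.67 (adjusted p = 0.385), and S100a6 and S100a4 kept their sign at -1.25 and -1.51 but were not called. DESeq2 called Ccr2 and Chil3 of the 6.

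**Figure D3:**
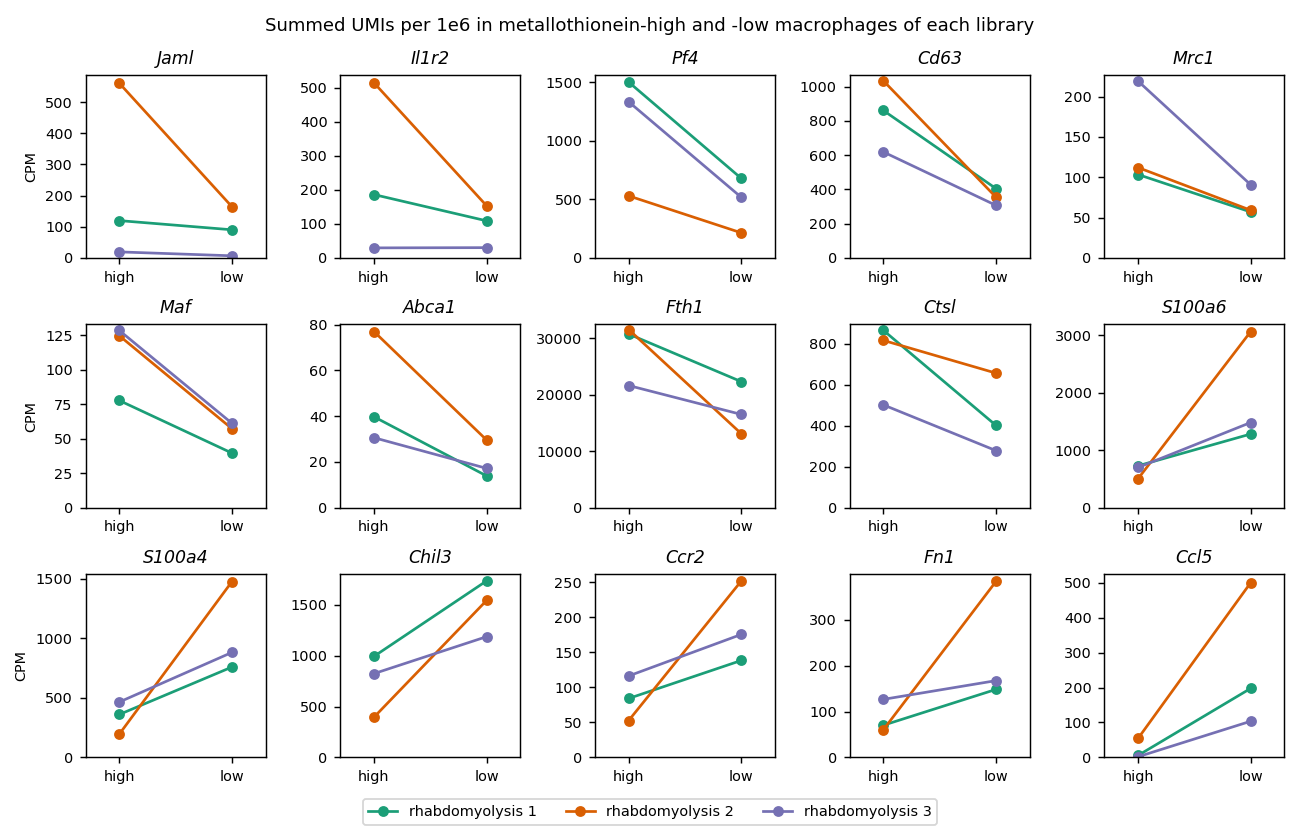
CPM (vertical axes, linear from 0) of 15 genes in metallothionein-high cells (left point) and metallothionein-low cells (right point), each line 1 rhabdomyolysis library. Jaml and Il1r2 were chosen as markers. Pf4, Cd63, Mrc1, Maf, Abca1, Fth1 and Ctsl are higher on the left in every library, and S100a6, S100a4, Chil3, Ccr2, Fn1 and Ccl5 are lower.

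Other lower genes among the largest changes had other roles. Rasgrp2, an activator of the small G protein Rap1, had 22.8, 11.4 and 15.3 CPM in metallothionein-high and 50.7, 81.4 and 40.9 CPM in metallothionein-low cells (log2 change -1.80 ± 0.27, adjusted p = 0.00436). Adgre5, the adhesion receptor CD97 of leukocytes, had 15.8, 12.9 and 38.7 CPM in metallothionein-high and 62.5, 79.5 and 58.5 CPM in metallothionein-low cells (-1.66 ± 0.28, adjusted p = 0.00928). The groups of each gene did not overlap. Among the alternatives that kept all libraries and tested them, both were called in each other than that without the library in the model. Neither was among the genes tested in the thinned counts. Hopx, a homeodomain protein that does not bind DNA, had 28.6, 19.9 and 13.3 CPM in metallothionein-high and 67.4, 57.3 and 31.3 CPM in metallothionein-low cells (-1.31 ± 0.19, adjusted p = 0.00372). Tgm2, the enzyme transglutaminase 2, had a log2 change of -1.18 ± 0.19 (adjusted p = 0.00706), and Nupr1, a stress-induced nuclear protein, of -1.45 ± 0.31 (adjusted p = 0.033). Hopx and Tgm2 were not called with a C1q share of at least 1%, and Tgm2 and Nupr1 not by DESeq2.

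Another set of lower genes was that of cytotoxic lymphocytes. Gzma, granzyme A, had 0 UMIs in the metallothionein-high cells and 79.9, 68.4 and 124 CPM in the metallothionein-low cells. With 513 UMIs in the metallothionein-low cells the summed level was at least 214-fold lower. This takes 3 counts over all metallothionein-high cells as the floor and each UMI as independent. The bound is at least 169-fold without replicate 1, 98.3-fold without replicate 2 and 131-fold without replicate 3. However, the 513 UMIs lay in only 3, 4 and 7 metallothionein-low cells of replicates 1, 2 and 3. A single cell held 48.7%, 54.1% and 29.4% of those of its library. The UMIs were thus not independent, and the bounds do not hold for the share of cells with Gzma or for a change within macrophages. Ccl5, a chemokine of cytotoxic lymphocytes, had 5.84, 54.4 and 2.04 CPM in metallothionein-high and 197, 499 and 104 CPM in metallothionein-low cells (log2 change -3.81 ± 0.27, adjusted p = 8.19e-07). All 3 tested NK cell markers, Gzma, Nkg7 and Klrk1, were lower, with a median of -4.22, and Lck was lower among the 2 tested T cell markers.

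Few barcodes held these transcripts. At least 2 UMIs of the NK and T cell marker lists were found in 2, 10 and 3 metallothionein-high cells (0.823%, 1.68% and 2.73%) and in 12, 6 and 17 metallothionein-low cells (5.88%, 7.14% and 4.76%). The summed NK marker level was 1.17, 5.56 and 3.06 CPM in metallothionein-high and 129, 128 and 172 CPM in metallothionein-low cells, with 5 of the 8 NK markers at 0 in all metallothionein-high cells. No doublet caller was run, and the rule itself takes out only cells with Cd3e or Cd79a. Without those barcodes, an alternative added after seeing the data, 36 genes were called, each of them among the 73, with 16 higher and 20 lower. Ccl5 was then at -0.46 (adjusted p = 0.839), while Pf4, Cd63, Mrc1, Maf and Fth1 were still called. Ccr2 (-1.20) and Fn1 (-1.41) missed the threshold there (adjusted p = 0.0579 each), and S100a6, S100a4, Chil3 and Thbs1 did not.

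Markers of other cell types differed in how they moved. Nonclassical monocyte markers, summed, had 56.1, 59.4 and 125 CPM in metallothionein-high and 119, 131 and 164 CPM in metallothionein-low cells. Of 7 tested, 1 had a positive change, Ear2 was called lower and the median was -0.78. Endothelial markers had 85.3, 101 and 36.7 CPM in metallothionein-high and 80.6, 226 and 113 CPM in metallothionein-low cells, with 0 of 6 positive, none called and a median of -0.85. Their part in the lower monocyte genes was not tested. Summed neutrophil markers had 1928, 510 and 922 CPM in metallothionein-high and 778, 586 and 853 CPM in metallothionein-low cells, led by S100a8 and S100a9, with Ngp, Camp, Ltf and Ly6g at 0. Summed tubule markers lay at 18.7 to 52.4 CPM in metallothionein-high and 12.4 to 21.5 CPM in metallothionein-low cells. Hemoglobin and other erythroid transcripts reached 5654 CPM in metallothionein-high cells of replicate 2, where 6 cells held 3 or more such UMIs and 1 cell 34.8% of them, and 2.92 and 6.12 CPM in those of replicates 1 and 3. No neutrophil or tubule marker was called. Without cells holding 3 or more UMIs of S100a8 and S100a9 or of hemoglobin, also added after seeing the data, 72 genes were called, 63 of them among the 73.

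The lists of zinc and copper transport, glucocorticoid-responsive genes, and Nrf2 and oxidative stress held no called gene. A count of this kind depends on how genes were assigned to lists: Fth1 and Blvrb, called higher, were counted with heme and iron handling only. Whether any inducer of metallothionein acted on these cells was not tested. Of 20 tested genes of zinc and copper transport none was called, and their median was 0.05. Slc30a1, a zinc exporter that MTF1 switches on, was chosen after its values were seen and had a log2 change of 0.04 ± 0.41 (adjusted p = 0.986). Atox1, a copper chaperone, had 761, 624 and 842 CPM in metallothionein-high and 829, 716 and 906 CPM in metallothionein-low cells. Of 17 glucocorticoid-responsive genes none was called, but 13 had a positive change and their median was 0.31. Dusp1, a phosphatase of that list, had 1555, 2057 and 924 CPM in metallothionein-high and 1065, 1313 and 771 CPM in metallothionein-low cells, a log2 change of 0.50 ± 0.12 that missed the threshold (adjusted p = 0.0676). Of 25 genes of Nrf2 and oxidative stress none was called, with a median of 0.04.

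Most other lists gave few calls or none. MHC class II presentation (15 tested), NF-kB subunits and feedback (19), respiratory chain (36), ribosomal proteins (43), cell cycle (15), acute phase and protease inhibitors (12) and amino acid transport and stress (13) had no called gene, with medians between -0.09 and 0.06. Pf4 was higher and Ccl5 lower among 22 inflammatory cytokines and chemokines, with a median of 0.10. Abca1 was higher and Nr1h3, the sterol-sensing receptor LXR alpha, lower among 25 lipid genes (median -0.05). Nr1h3 was scarce, with 1.75, 1.17 and 8.16 CPM in metallothionein-high and 16.7, 14.8 and 14.1 CPM in metallothionein-low cells. Its average log2 CPM of 3.22 lay below the 5 demanded of the largest changes. Mrc1 was higher among 23 scavenger receptor genes (0.13). Fn1, Thbs1 and Chil3 were lower among 19 repair and matrix genes (-0.14), Il17ra among 18 interleukin 1 and 6 receptor genes (0.22) and Rsad2 among 24 interferon genes (0.03). Slc16a3, a lactate transporter, was lower among 22 hypoxia and glycolysis genes (-0.08), Klf2 among 22 immediate early genes (0.28) and Hspb1 among 27 chaperone genes (-0.02). Hspb1 was not called without the 5% of cells with most UMIs (-0.64, adjusted p = 0.472). Without replicate 2 Hspb1 was at -1.10, Vim at -0.53, S100a10 at -0.51, Anxa2 at -0.53 and Nupr1 at -0.82. Without replicate 1 Cd44, Vim, Klf2, Slc16a3, Nr1h3 and Il17ra were not called (adjusted p = 0.0548 to 0.343), and without replicate 3 Rsad2 was not (0.104).

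**Figure D4:**
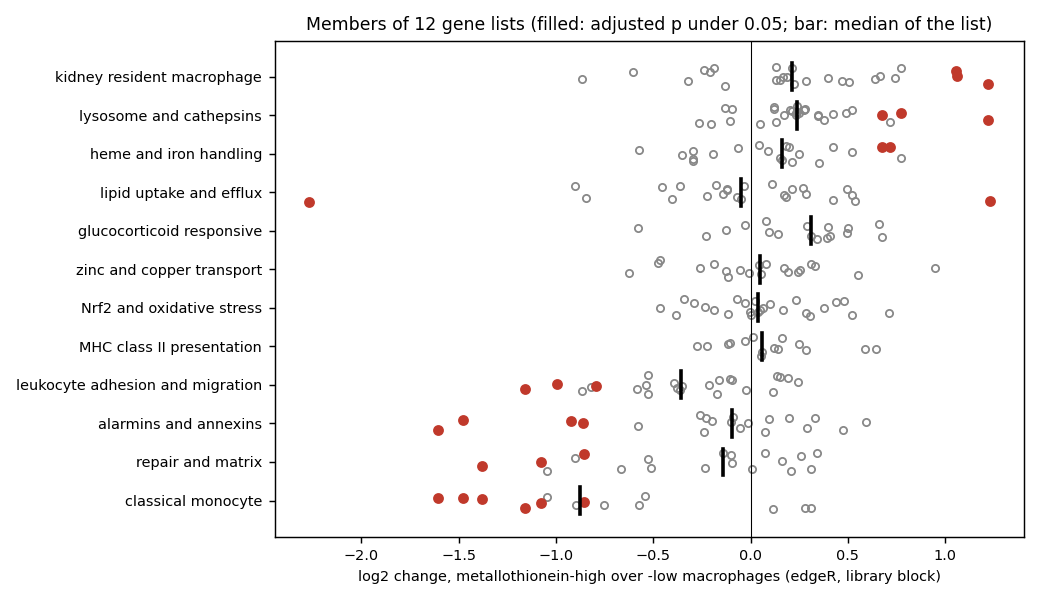
Log2 changes of metallothionein-high over metallothionein-low macrophages (horizontal axis) for the tested members of 12 gene lists (rows). Filled points passed an adjusted p of 0.05 in the edgeR test, and black bars are list medians. The classical monocyte list has a median of -0.88 and 6 called genes, and the lysosome list a median of 0.24 and 3.

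Cd63, Abca1, S100a6 and S100a4 changed by degrees with the metallothionein share, while several other called genes did not. In replicate 2, Cd63 had 186 CPM in cells below 0.05%, 497 between 0.05% and 0.1%, 732 between 0.1% and 0.2%, 888 between 0.2% and 0.5% and 1279 in cells of 0.5% or more. Over the same 5 classes Cd63 had 316, 468, 758, 993 and 1087 CPM in replicate 1. In replicate 3 it had 265, 389, 504, 865 and 1317 CPM, the last from only 4 cells. The Cd63 level thus climbed at each step in each library, on both sides of the 0.1% threshold. Abca1 did so too, from 8.44 to 77.7 CPM in replicate 1, 8.09 to 88.6 in replicate 2 and 16.2 to 132 in replicate 3.

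S100a6 showed the opposite order. It had 1593, 1064, 911, 539 and 112 CPM over the 5 classes in replicate 1, and 3487, 2705, 952, 614 and 222 CPM in replicate 2. Replicate 3 had 1702, 1056, 713, 704 and 0 CPM, again with 4 cells in the last class. Ccr2 had 202 CPM in the lowest and 25.9 CPM in the highest class of replicate 1, and 299 and 16.1 CPM in those of replicate 2. The cells richest in metallothionein, 23 in replicate 1 and 294 in replicate 2, were thus the poorest in these monocyte transcripts. Jaml climbed at each step in replicate 2 alone, with 117, 204, 456, 534 and 627 CPM. It had 60.7, 111, 103, 150 and 112 CPM in replicate 1. Pf4 had 68.8, 337, 564, 401 and 612 CPM over the 5 classes in replicate 2. Klf2 had 641, 161, 200, 247 and 190 CPM in replicate 1, so that its difference lay between the lowest class and the rest. Chil3 in replicate 3 had 729 CPM between 0.1% and 0.2% and 1095 CPM between 0.2% and 0.5%. These classes were made from the same cells and are a description.

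**Figure D5:**
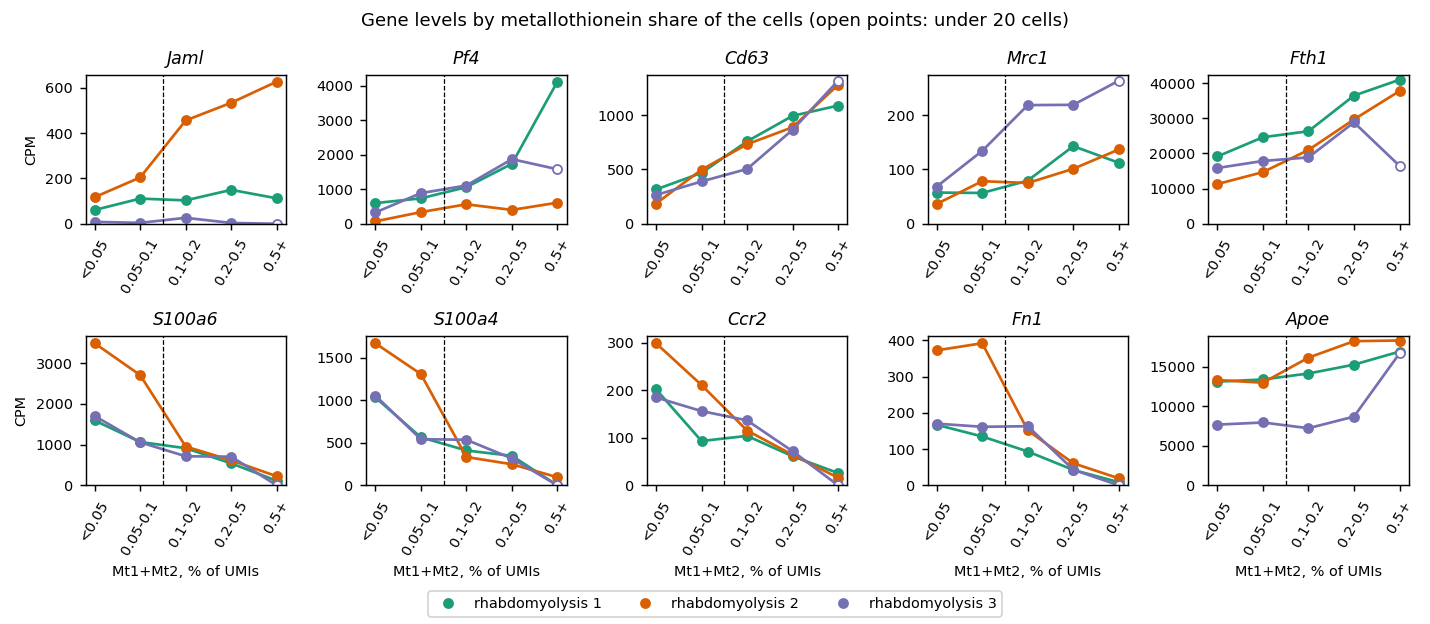
CPM (vertical axes, linear from 0) of 10 genes against the Mt1 and Mt2 share of the cells (horizontal axis, 5 classes in percent of UMIs), 1 line per rhabdomyolysis library. The dashed line is the 0.1% threshold and open points stand for under 20 cells. Cd63 climbs, and S100a6 and S100a4 drop, at each step in every library.

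The control libraries, which the rule did not use, allowed the same split, added after seeing the data. There 134 cells at or above 0.1% were set against the other cells of the 4205 macrophages, and 19 of 9392 genes tested (0.202%) were called by edgeR with the library as a block. None of the 19 was among the 73, and with so few calls this says little about what the splits share. Lgals3, which encodes galectin 3, Gdf15, a stress-induced cytokine, and Slc40a1, the iron exporter ferroportin, were among those that were higher, with log2 changes of 0.78, 3.69 and 1.73, and were chosen after their values were seen. Of the named genes, Fos, an immediate early gene, and Dusp1 were called higher in the control split. Their log2 changes there were 0.47 (edgeR adjusted p = 5.06e-05) and 0.46 (0.0117). In rhabdomyolysis these were 0.41 and 0.50, and neither was called (adjusted p = 0.227 and 0.0676). Of the 73 genes, 62 were tested in the control libraries too, and 48 of them (77.4%) had the same sign there, against 50.4% of 7814 genes tested in both. In the control split Pf4 had a log2 change of 0.23, Cd63 of 0.32, S100a6 of -0.97 and Hspb1 of -1.72, none of them called. Gzma was at -3.64 there and missed the threshold (adjusted p = 0.0573).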

How the data were processed

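The deposited matrices were made with Cell Ranger 4, per the file headers. The deposited values are raw UMI counts, made by the authors with that tool and not normalized, of 32285 genes and 6 antibody tags for each barcode, empty droplets included. The genome build was mm10, per the submitters' processing notes. Gene symbols are those of the deposited feature lists. The members, gene lists, marker lists and named-gene rule were chosen with earlier results of these data known.

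The gates were applied to gene UMIs, and counts of metallothionein-high and metallothionein-low cells were summed per library, with at least 20 cells per sum. Sums were tested in edgeR 4.0.16 (R 4.3.3) with TMM scaling, the default expression filter, library as a block and adjustment over all tested genes. Genes that the rule used were left out of the tested genes. Jaml and Il1r2 stayed in the fit and in the adjustment, but are not counted among the tested genes and are given no p-value. SE is the log2 change divided by the square root of F. CPM are summed UMIs scaled to 1000000 gene UMIs, without TMM. Both classes come from 1 library, which makes the library a true pairing: deviations of the 2 classes of a library correlated at 0.65, 0.60 and 0.62 over 2430 genes. Depth limits precision through 110 to 594 metallothionein-high and 84 to 357 metallothionein-low cells per library. Scripts were tested on simulated data.

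Named genes were the 12 largest called rises and falls with an average log2 CPM of at least 5 and 1 direction in all libraries, and from each list up to 4 called genes or, with fewer than 2, the 2 most abundant. Genes outside this rule are said to be so or are listed as members. A gene that the rule names is not reported here. Free RNA was summed over barcodes of 100 or fewer UMIs. The alternatives were no library block, DESeq2 1.42.0, library totals, no expression filter, other cell minimums, other metallothionein thresholds, deeper or thinned cells, a mitochondrial limit of 10%, and each replicate left out. The C1q share of 1%, the removal of cells with NK and T cell, S100a8, S100a9 or hemoglobin transcripts, and the split of control macrophages were added after seeing the data. Clopper-Pearson intervals are at the 95% level.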

Additional observations from a re-analysis of the deposited data

Results flagged for a closer look

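For 6 of the named genes all 3 rhabdomyolysis libraries and all 3 control libraries differed in opposite directions between macrophages above and below the metallothionein threshold; the difference between the groups was not tested. Among the called genes, the log2 change of Trp53inp1 was 2.21 in rhabdomyolysis and -1.22 ± 1.02 (SE) in control libraries, where the cells above the threshold held 1, 1 and 0 UMIs of it. Slc16a3 had -0.81 in rhabdomyolysis and 0.22 in control libraries, from 2 UMIs in each control library above the threshold, Cd44 had -0.80 and 0.59, and Klf2 had -0.68 and 0.18. Bst2 (0.14 in rhabdomyolysis, -0.32 in control libraries) and Oaz1 (-0.15 and 0.10) were called in neither. None of the 6 was called in the control libraries, where the cells above the threshold numbered 54, 48 and 32.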

How the results depend on the processing

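The main comparison called 73 genes. The pairing by library mattered most: with no replicate block 1 gene was called (Gzma, lower, with 295 at an unadjusted p under 0.05). DESeq2 called 21, all among the 73. No expression filter gave 237, a 0.2% threshold 123 and a metallothionein-low class with 0 UMIs of Mt1 and Mt2, which left out replicate 2 with its 12 such cells, 290. Cells of 2000 or more UMIs gave 45, thinning to 1000 UMIs 13 of only 2833 tested genes, a C1q share of 1% gave 40 with 25 among the 73, and barcodes without NK and T cell transcripts 36. Leaving out 1 replicate gave 68 to 211 calls: 68 without replicate 1, 211 without replicate 2 and 194 without replicate 3, of which 42, 70 and 61 were among the 73. Each of these fits has few sums from which to estimate the variance. Without replicate 2 the edgeR adjusted p of Pf4 fell to 2.45e-53, so a call there does not show that a result holds without that library. Library totals, other cell minimums, 3 or more metallothionein UMIs, and leaving out the deepest cells or those with S100a8, S100a9 or hemoglobin stayed within 1.5 times, at 72 to 98. The calls kept their sign in each of these settings where tested, apart from Chil3 at a C1q share of 1% (0.67). With the metallothionein-low class at 0 UMIs Il1r2 (-0.42), Pkm (0.69) and Cstb (0.58), none of them called in the main comparison, changed sign. The cause of these changes was not tested. The metallothionein-high shares moved with the threshold, to 79.9%, 94.4% and 48.6% at 0.05% and to 24.4%, 72.4% and 7.92% at 0.2% in replicates 1, 2 and 3. Thinned to 1000 UMIs they moved to 67.4% and 40.9% in replicates 1 and 3. At a mitochondrial limit of 10% they differed by under 1 percentage point.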
